A study of Mus musculus with 2 samples.

Results

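Replication-dependent histone genes, the many small genes that supply most histone protein to newly copied DNA, were examined for Arid1b peaks in cultured mouse dental mesenchyme cells. They were chosen as the protein-coding genes of the RefSeq table of GRCm38.p6 (mm10) named H2ac, H2bc, H3c or H4c followed by a number. This gave 57 of the 21770 protein-coding genes on assembled chromosomes, with 17 genes for H2A, 16 for H2B, 12 for H3 and 12 for H4. The series compared 2 libraries. In the first, DNA bound by Arid1b was pulled down with a Cell Signaling antibody and sequenced (ChIP-seq). Arid1b is the large DNA-binding subunit that, in place of Arid1a, defines BAF complexes, which move nucleosomes with energy from ATP. The second library was input chromatin, prepared without antibody. Both used primary cells of C57BL/6 wild-type mice, labelled as dental mesenchyme and taken from molars (first mandibular, apical part) between postnatal days 3.5 and 7.5. They were cultured with 10% serum, and the labels do not say how many animals were pooled. The design text names Gli1-CreER;Arid1a fl/fl mice, but the labels of both libraries give wild-type cells, and no Arid1a library was analysed here. From both libraries the authors made 1 list, which holds 8318 peaks. Since each group is a single library, no replicate check and no test could be made, and each value describes these libraries only.

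Canonical histones package DNA as octamers of H2A, H2B, H3 and H4. Their genes are transcribed mainly in S phase, carry no introns in their usual form, and give mRNAs that end in a stem-loop in place of a poly(A) tail. The genes are repeated in clusters, where H2A and H2B genes often face away from each other across a shared promoter, and the clusters gather in nuclear histone locus bodies with the factor NPAT. The S phase share of the cultured cells was not measured in the data used here.

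Because the histone peaks were few, the promoter letters are shown for the genes that had one. Sequences are from RefSeq (GRCm38.p6), on the strand of the gene, and end at the base before the annotated start site. The first 2 promoters belong to the genes that a peak overlapped and for which a promoter entry was found, and capitals mark the bases inside the peak.
H3c8, chr13:23535168-23535417, plus strand: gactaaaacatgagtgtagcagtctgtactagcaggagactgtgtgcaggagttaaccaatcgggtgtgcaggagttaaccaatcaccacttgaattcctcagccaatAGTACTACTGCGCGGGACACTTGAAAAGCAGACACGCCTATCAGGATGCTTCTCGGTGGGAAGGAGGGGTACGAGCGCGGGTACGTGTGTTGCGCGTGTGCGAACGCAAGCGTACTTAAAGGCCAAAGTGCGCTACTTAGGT
H2ac21, chr3:96219635-96219884, plus strand: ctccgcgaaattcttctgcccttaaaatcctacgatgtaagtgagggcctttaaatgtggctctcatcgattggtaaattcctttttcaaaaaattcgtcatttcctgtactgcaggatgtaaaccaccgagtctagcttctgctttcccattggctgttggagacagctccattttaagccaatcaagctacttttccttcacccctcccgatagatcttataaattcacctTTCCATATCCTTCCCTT
The peak covered 142 of the 250 bases printed for H3c8 and 17 of the 250 for H2ac21. At H3c8 the 3 CCAAT boxes lay outside it, on the side away from the gene. H2ac21 had 3 CCAAT boxes, counted on both strands, and a TATAAA close to the start.

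The next 4 promoters belong to genes that no peak overlapped. H2ac10 and H2ac20 had a peak within 1 kb, H2bc18 had one within 10 kb, and H2ac22, which shares its promoter with H2bc22, had none nearer than 226526 bp. Capitals here mark matches, on either strand, to CCAAT (the NF-Y box), TATAAA, ATTTGCAT (the octamer of H2B promoters) or TTTCGCGC (an E2F-type site). H2ac20 and H2ac22 are shown only as far as the next annotated gene.
H2ac10, chr13:23533625-23533874, plus strand: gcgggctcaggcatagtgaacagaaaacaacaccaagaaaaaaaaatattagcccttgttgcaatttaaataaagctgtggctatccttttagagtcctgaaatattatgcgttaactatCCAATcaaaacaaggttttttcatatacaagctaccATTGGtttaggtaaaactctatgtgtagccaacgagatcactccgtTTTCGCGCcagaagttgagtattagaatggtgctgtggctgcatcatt
H2ac20, chr3:96220881-96221071, minus strand: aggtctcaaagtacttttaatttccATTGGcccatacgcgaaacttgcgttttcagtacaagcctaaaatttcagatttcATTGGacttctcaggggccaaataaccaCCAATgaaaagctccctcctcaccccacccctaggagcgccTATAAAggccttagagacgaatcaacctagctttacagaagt
H2ac22, chr13:21787249-21787482, minus strand: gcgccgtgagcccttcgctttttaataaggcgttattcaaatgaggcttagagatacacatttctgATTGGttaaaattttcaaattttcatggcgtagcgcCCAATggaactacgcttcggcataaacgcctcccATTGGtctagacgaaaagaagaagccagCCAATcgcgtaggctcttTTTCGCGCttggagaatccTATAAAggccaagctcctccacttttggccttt
H2bc18, chr3:96269450-96269699, plus strand: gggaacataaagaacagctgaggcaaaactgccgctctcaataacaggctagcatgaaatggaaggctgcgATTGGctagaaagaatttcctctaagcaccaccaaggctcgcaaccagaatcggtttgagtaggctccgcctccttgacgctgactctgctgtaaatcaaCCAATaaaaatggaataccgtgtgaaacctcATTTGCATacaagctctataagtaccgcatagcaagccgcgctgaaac
The promoter of H2ac22, far from any peak, held 4 CCAAT boxes, a TATAAA and a TTTCGCGC, more of these letters than any of the other printed promoters.

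Arid1b peaks at the histone genes were few. Part of a peak lay within 1 kb of a boundary (either annotated end) of 6 of the 57 genes (10.5%), against 22.3% of all protein-coding genes. A peak lay in the gene or within 10 kb for 11 (19.3%), against 31.9%. The 6 genes were H2ac21, H2ac20, H2bc21 and H4c14 on chromosome 3 and H2ac10 and H3c8 on chromosome 13. The 5 added by the wider window were H3c13 and H2bc18 on chromosome 3 and H4c8, H2bc9 and H3c7 on chromosome 13. Only 3 distinct peaks stood behind all 11 genes, because neighbours shared them. Of the 6 genes with a boundary peak, 5 (83.3%) shared it with another protein-coding gene, through the peaks at H2ac21 and H3c8. Among all 4856 protein-coding genes with a boundary peak, 1499 (30.9%) shared one, and the difference was not tested.

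The peak with the highest fold was at H2ac21, an H2A gene at chr3:96219885-96220354. It spanned 434 bp at chr3:96219868-96220301, and the authors' fold over input at its summit was 4.23, with an exact Poisson 95% interval of 3.05 to 5.73. The summit pileup was 40 fragments against an expected level of 8.68, which is the genome background level of the list. Intervals of this kind cover counting error only, for fragments at the summit. The peak ran from 17 bp before the H2ac21 start site to 416 bp after it, its summit lay 55 bp after the start, and it covered 88.7% of the gene. It lay over the transcribed part of this intronless gene more than over its promoter, with 96.1% of the peak inside the gene.

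The same peak was counted for H2ac20 and H2bc21 as well. H2ac20, an H2A gene on the opposite strand whose 3′ end faces that of H2ac21 across 58 bp, had that end 112 bp from the peak and its start site 579 bp from it. H2bc21, an H2B gene, had its nearer end 771 bp away, so that its boundary was reached by the edge of the peak and not by the summit. Of the 5272 distinct boundary peaks in the list, 884 reached 2 protein-coding genes and 22 reached 3, and the H2ac21 peak was one of those 22.

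The peak at H3c8, an H3 gene at chr13:23535418-23535909, was centred on a start site. It spanned 240 bp at chr13:23535276-23535515, from 142 bp before the start to 97 bp after it, and its summit lay 18 bp before the start. The fold was 3.82 (2.71 to 5.25), from a pileup of 36 against 8.68. This peak also came within 898 bp of H2ac10, the H2A gene upstream on the same strand, but its summit lay more than 1 kb away. It was the single peak within 10 kb of H4c8 (3798 bp away), H2bc9 (7408 bp) and H3c7 (8537 bp).

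The peak with the lowest fold of the 3 was at H4c14, an H4 gene at chr3:96262934-96263317. It spanned 221 bp at chr3:96263017-96263237, with a fold of 3.03 (2.1 to 4.23) from a pileup of 32 against a local level of 9.91. The peak lay wholly inside the gene, starting 83 bp after its low-coordinate end and stopping 80 bp before its high-coordinate end. H3c13, 5417 bp away, and H2bc18, 6463 bp away, were the other genes within 10 kb of it.

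The share of histone genes with a peak was below that of all protein-coding genes in each of the following windows and limits, of 20 kb or less. With a boundary window of 500 bp, 4 histone genes had a peak, against 20.1% of all genes, and with 5 kb it was 7 against 27.1%. In or around the gene, 7 had one within 5 kb, against 28.8%, and 16 within 20 kb, against 37.2%. Counting start sites alone left 3 of the 52 genes of known strand, H3c8, H2ac21 and H2ac20, against 23%. H4c14 and H2bc21 were not among the 52, although the H4c14 peak lay within 1 kb of both ends of that gene. Counting summits in place of whole peaks left 4 at a boundary against 21.6%, and 11 within 10 kb against 31.8%. Peaks with a -log10 q of at least 5 gave 6 genes against 20.6% and 11 against 29.8%. At 10 or more the H2ac21 peak alone was left, with 3 genes in either window against 10.6 and 16%. At a fold of at least 4 the same 3 genes stood against 10.6 and 16.1%. Peaks whose expected level was the genome background gave 5 genes against 11.5% and 8 against 18%, the smallest gaps among these settings. These comparisons share their peaks and genes, and none was tested.

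The 3 histone peaks lay within the common range of this list, whose median fold was 3.72 (quartiles 3.30 and 4.32), or below its lower quartile. Folds lower than theirs were found for 71.6% of all peaks at H2ac21, 53.6% at H3c8 and 13.2% at H4c14. The intervals of all 3 included the list median and overlapped each other, so at this depth they could not be ordered. Their -log10 q values, as deposited, were 10.9, 8.47 and 5.06, against a lowest value of 2.27 and a median of 8.47 in the list.

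The histone clusters differed in how many of their genes had a peak nearby. Joining members less than 1 Mb apart gave 1 run on chromosome 3 and 2 on chromosome 13. The chromosome 3 run, 10 genes over 50.3 kb from H2ac21 to H2bc18, had 4 genes with a boundary peak (40%) and 6 with one within 10 kb (60%). Both shares were above the 22.3 and 31.9% of all protein-coding genes, unlike those of the members as a whole. The second run on chromosome 13, 26 genes over 404 kb from H4c8 to H2ac1, had 2 (7.69%) and 5 (19.2%). The first run on chromosome 13, 21 genes over 328 kb from H2bc13 to H2bc11, had 0 and 0. Genes of a run are neighbours that share peaks, so these counts rest on 2, 1 and 0 peaks and the difference was not tested.

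**Figure D1:**
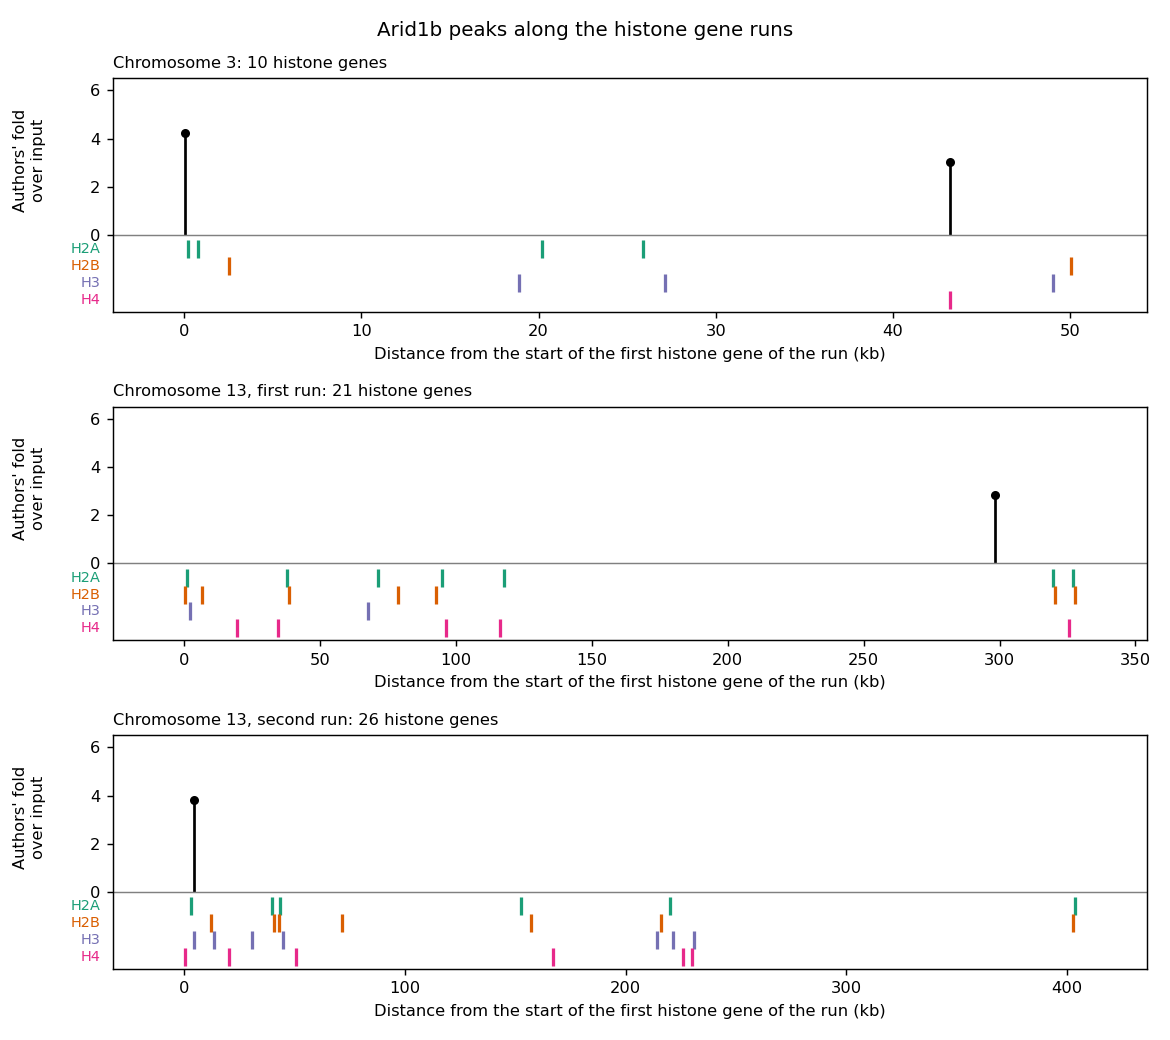
Position of the histone genes (ticks, by class) and of all Arid1b peaks (stems, height is the authors' fold over input) along the 3 runs, as distance in kb from the start of the first gene. The 2 peaks of chromosome 3 (4.23 and 3.03) and the peak near the left end of the second run (3.82) lie at histone genes, whereas the peak of the first run (2.86) lies in its gap.

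On chromosome 3 the 4 genes without a peak within 10 kb sat together in the middle of the run. They were H3c15 (18178 bp from the nearest peak), H2ac19 (19478 bp), H2ac18 (16965 bp) and H3c14 (15669 bp). They form an inverted duplicate, with an H3 gene outside and an H2A gene inside on each arm. The run held no protein-coding gene other than histone genes, and 2 peaks in 50.3 kb came to 39.8 peaks per Mb, against 3.13 per Mb over all annotated chromosomes. Per gene the order was the other way round, at 20 peaks per 100 protein-coding genes in the run against 38.2 in the whole list.

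In the second run of chromosome 13 the peak lay at one end and most of the run had none. Beyond the 5 genes already named, the next were H4c6 at 15771 bp and H3c6 at 25960 bp from it. The 7 genes from H2ac8 to H2bc6 lay between 35148 and 48155 bp away, and the 12 from H2ac6 to H2ac1 between 147958 and 398922 bp. The last of these, H2bc1 and H2ac1, encode testis histones. The 11 other protein-coding genes of the run, among them the iron regulator Hfe, Trim38 and the Slc17a1 to Slc17a4 transporter genes, had 0 boundary peaks. The run held 2.48 peaks per Mb and 2.70 per 100 protein-coding genes.

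The first run of chromosome 13 held 1 peak, and it was not at a histone gene. This peak, at chr13:22013774-22014016, had a fold of 2.86 (1.93 to 4.09). It lay 21106 bp from H2ac12 and 4033 bp from Prss16, a gene for a thymus serine protease, and the annotated gene end nearest to its summit was that of a valine tRNA gene 1839 bp away. The 5 members at that end, H2ac12, H2bc12, H4c9, H2ac11 and H2bc11, lay 21106 to 29182 bp from it. For the other 16 the nearest peak was 180299 to 230377 bp away, either this one or a peak of 5.82 (4.44 to 7.49) inside Zkscan8 on the far side of the run. The 1487 kb between the 2 runs held 41 protein-coding genes, 36 of them vomeronasal receptor genes of the Vmn1r family, and 0 peaks.

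**Figure D2:**
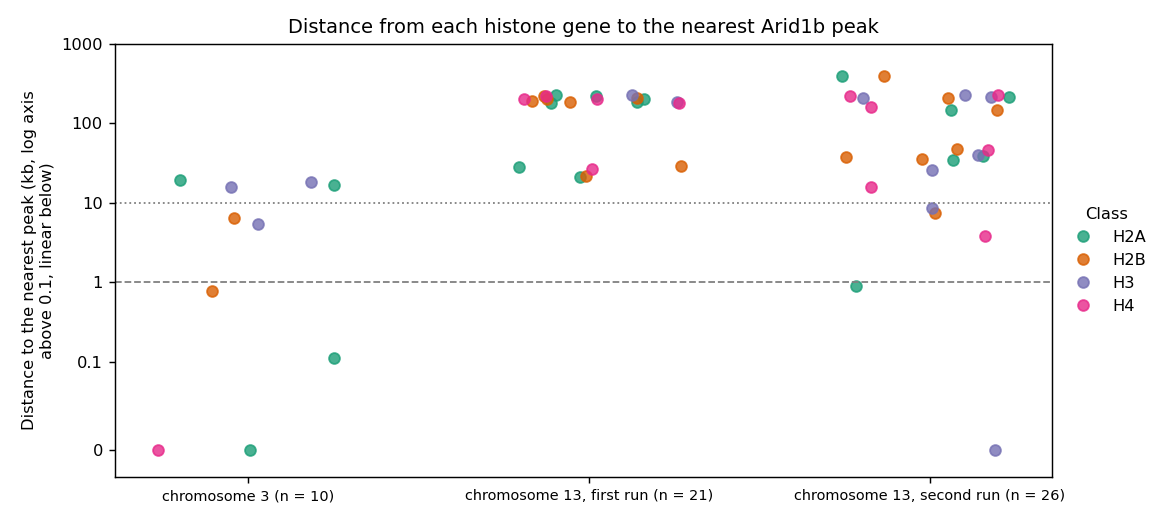
Distance in kb from each of the 57 histone genes (points, coloured by class) to the nearest edge of an Arid1b peak, by run, with lines at 1 kb (dashed) and 10 kb (dotted). The genes of the chromosome 3 run lie at most 19478 bp from a peak, whereas those of the first run of chromosome 13 lie at least 21106 bp away.

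Over all members the median distance to the nearest peak was 48155 bp, near the 52341 bp of all protein-coding genes that have a peak on their chromosome. The lower quartiles were far apart, at 18178 bp for histone genes and 194 bp for all. Within 20 kb of a peak lay 28.1% of the histone genes against 37.2% of all. Within 50 kb it was 50.9% against 48.7%, within 100 kb 50.9% against 60.7%, and within 200 kb 66.7% against 72.2%. The histone share was thus the lower one at each of these distances except 50 kb. All 57 lay within 400 kb of a peak, as did 81.8% of all genes.

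The peaks were spread over the 4 histone classes. A boundary peak was found for 3 of 17 H2A genes, 1 of 16 H2B genes, 1 of 12 H3 genes and 1 of 12 H4 genes. Within 10 kb the counts were 3, 3, 3 and 2. Strand was known for 52 members. Among neighbours on a run with known strands there were 9 divergent pairs of an H2A and an H2B gene, 163 to 280 bp apart. None of these 9 shared promoter regions had a peak within 1 kb of either gene. The 3 H2A genes with a boundary peak, H2ac10, H2ac20 and H2ac21, were not in such a pair as far as strand was known. The strand of H2bc21, the neighbour of H2ac20, was not analysed here. This H2A and H2B pair, in which both genes had a boundary peak, was therefore not counted among the 9.

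Chromosome 11 held 0 genes with these symbols. In the RefSeq table its small histone cluster is named H2bu2, H2aw and H3f4, outside the rule. Of the 3, H2aw, an H2A gene at chr11:58954685-58955192, had a peak across its end, at chr11:58955125-58955454. The fold was 2.79 (1.86 to 4.04) from a pileup of 26 against 8.68, and its interval overlapped those of the 3 peaks at members. H2bu2 and H3f4 lay 5753 and 6257 bp from that peak and had no other within 10 kb.

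An H4 gene on chromosome 6, H4f16, had a peak placed as at H4c14. Its peak, at chr6:136804091-136804348, lay wholly inside the gene (chr6:136803993-136804431), with a summit 217 bp after the start and a fold of 3.51 (2.53 to 4.75). The H2A variant gene H2aj next to it had a peak inside the gene of 3.06 (2.09 to 4.32). Such placement was common at short genes. Of 13 genes under 1000 bp with a boundary peak that were not members, 7 had over 90% of the peak inside the gene. H4f16 was among these 7. H2aw and H4f16 were picked for this description after their values were seen. The table also names H4bc24 in the first run of chromosome 13, whose symbol falls outside the rule, and it had no peak within 10 kb.

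Histone promoters had a higher median CpG ratio than protein-coding genes as a whole. The entries for H3c7, H2bc4, H3c1, H2bc21 and H4c14 were not used. Over the 300 bases from 250 before to 50 after the start, the CpG count relative to that expected from C and G had a median of 0.75 in the 52 members with a promoter entry. The median was 0.58 over 17491 protein-coding genes. The GC content of the 52 was lower, with a median of 45.0% (33.3 to 72.7%) against 56.3%. The 4 members with a boundary peak and an entry lay within the range of the other members, with CpG ratios from 0.5996 (H2ac20) to 0.91 and GC from 40.7 to 51.7%.

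Across all protein-coding genes the share with a boundary peak went with this ratio. It was 2.07% of genes below 0.2, 6.08% from 0.2, 16.7% from 0.4, 31.9% from 0.6, 42.5% from 0.8 and 49.7% from 1 upward. Histone genes had 0 of 3 in the class from 0.2, 1 of 13 from 0.4 (H2ac20, just under the limit of 0.6), 2 of 13 from 0.6, 1 of 17 from 0.8 and 0 of 6 from 1 upward. In each of these classes the histone share was below that of all genes. With only 3 histone genes, however, the class from 0.2 was too small to compare with 6.08%. H2ac10 and H3c8 shared 1 peak, as did H2ac20 and H2ac21. The 6 in the last class included H2ac18 and H2ac19 of the chromosome 3 duplicate, the former with the highest ratio of all members, 1.31.

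**Figure D3:**
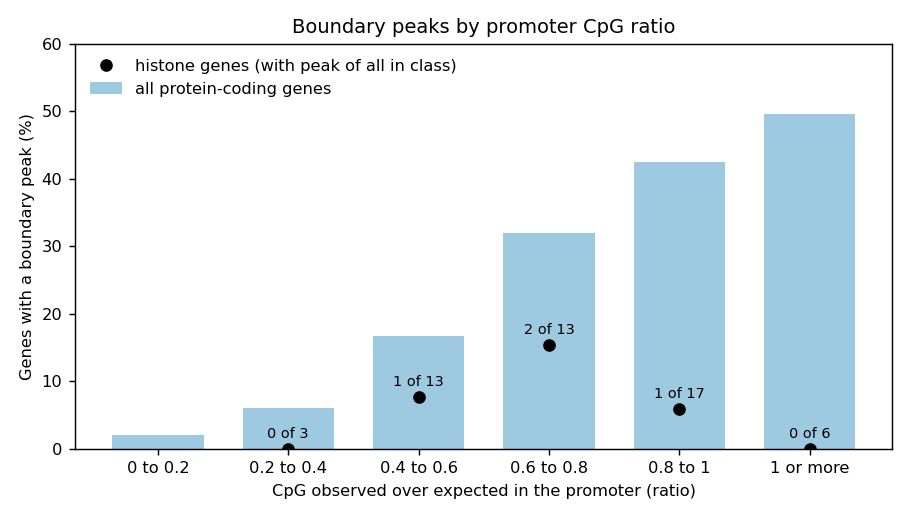
Share of genes with a boundary peak (%) by promoter CpG ratio for all protein-coding genes (bars) and histone genes (points, with the number of genes). The bars climb from 2.07% to 49.7%, and the points stay between 0 and 15.4%, below the bar of each class. The class from 0.2 holds only 3 histone genes, too few to compare with its bar.

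Length also moved with the count. The members had a median length of 487 bp, and 52 of the 57 were under 1000 bp. Of all 1562 protein-coding genes of that length, 18 had a boundary peak (1.15%) and 46 one within 10 kb (2.94%). With chemosensory receptor genes left out, it was 18 of 590 (3.05%) and 45 of 590 (7.63%), and short members made up 5 of the 18 and 10 of the 45. Without the members it was 13 of 538 (2.42%), against 5 of 52 short members. Among short genes with a promoter CpG ratio of at least 0.6 the order turned, with 12 of 46 others (26.1%) against 3 of 33 members (9.09%). H4f16 and H2aw were among these 12 others. The length and CpG classes were chosen after the counts were known, and their part in the histone count was not tested.

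Letters typical of histone promoters were common in the members, with and without peaks. CCAAT, on either strand, was found in 44 of 52 promoters (84.6%) against 37.9% of 27025 promoters of any gene, 1 per gene. All promoters of H2A, H2B and H3 genes held it, and 3 of 11 of H4 genes. TATAAA was in 30 (57.7% against 14.2%). ATTTGCAT was in 6 H2A and 6 H2B promoters and in none of the 10 of H3 and 11 of H4 (23.1% over all members against 1.75%). TTTCGCGC was in 9 (17.3% against 0.318%), all of H2A or H2B genes, and its variant TTTGGCGC in 0 (against 0.537%). The AP-1 letters TGANTCA were in 2 (3.85% against 7.93%), those of the divergent neighbours H2bc13 and H2ac13. Divergent neighbours share letters, overlapping matches were each counted, and a match is a description of the sequence only. Of the 4 promoters of genes with a boundary peak, all held CCAAT and 2 held TATAAA, against 40 and 28 of the 48 others.

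Some histone copies are so alike that reads may not tell them apart. Of the 52 promoters, 11 shared at least 1 identical stretch of 50 bases with another promoter elsewhere. The largest overlaps were at H2bc23 (all 300 bases, shared with the promoters of H4bc24 and H2ac24), H4c17 and H4c18 (285 bases with each other), and H3c14 and H3c15 (284 bases with each other). None of the 11 belonged to a gene with a peak within 10 kb (0 of 8), and H2ac18 and H2ac19 were also among them. Coding parts could not be compared with the sequences used here. How reads that fit several copies were treated is not given in the sources used here, and the part of this in the histone counts was not tested.

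Genes for the linker histone H1 in the same runs had no peaks. H1f1 to H1f6, which bind DNA between nucleosomes, lay 19517 to 233149 bp from the nearest one. Outside the runs, peaks were found at genes for replacement histones, which are made throughout the cell cycle. A list of 19 variant and linker histone genes also held H1f1 to H1f6 of the runs, and H2bu2 and H3f4 of chromosome 11. Of these 19 genes, 7 had a boundary peak (36.8%), namely H3f3a, H2ax, H2az2, H1f0, H2az1, H2aj and Macroh2a1. H3f3a, one of the genes for H3.3, had the highest, 5.10 (3.81 to 6.70). H2ax, for the variant phosphorylated at DNA breaks, had 4.54 (3.32 to 6.08). H2az2 had 3.61 and H2az1 3.30, H1f0 3.40 and Macroh2a1 2.80. H3f3b, the other H3.3 gene, had 2 peaks inside the gene, the higher of 4.73, and no boundary peak. Cenpa, the centromeric H3 gene, had none within 10 kb.

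Genes for proteins that transcribe, process and carry histones had boundary peaks at shares above the 22.3% of all protein-coding genes. That comparison was not matched for promoter CpG ratio, with which the share of all genes went. Of 19 genes for histone gene transcription and the locus body, 11 had one. Cdk2, the kinase that activates NPAT with cyclin E, had the highest at 7.54 (5.92 to 9.47), in a peak also at Rab5b and Pmel. That peak (chr10:128696030-128696992) did not overlap Cdk2 (chr10:128697938-128705051), and only its edge came within 1 kb of the gene. The other of the 2 boundary peaks of Cdk2 lay inside the gene. By fold, Cdk2 was followed by Cramp1l (6.40), the E2F gene E2f4 (5.15) and the cyclin E gene Ccne2 (4.65). Hinfp, the activator of H4 genes, E2f1 and Pou2f1, the octamer-binding factor, each had 4.23 (3.05 to 5.73), the value of the H2ac21 peak. Npat itself had one of 3.06 (2.09 to 4.32), shared with its divergent neighbour Atm. Casp8ap2, for the locus body protein FLASH, had no peak within 10 kb.

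Of 20 genes for mRNA 3′ end processing and decay, 10 had a boundary peak. Slbp, whose protein binds the stem-loop of histone mRNAs, had one of 8.97 (7.23 to 11), shared with Tmem129. Its interval lay above that of each of the 3 peaks at histone genes. Cpsf2, which also serves polyadenylated mRNAs, had 9.40 (7.69 to 11.4), shared with Ndufb1. Cpsf3, for the nuclease that cuts histone mRNA ends, had 4.34, the Sm protein gene Snrpe 4.23 and Cpsf1 4.13. Lsm11 and Zfp473, whose proteins belong to the U7 machinery of histone mRNA ends, had none within 10 kb, and Lsm10 had none at a boundary. The other 9 beside Slbp (Cpsf1 to Cpsf3, Cstf1, Fip1l1 and the Sm genes Snrpb, Snrpd3, Snrpe and Snrpg) also process other RNAs.

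Histone chaperone and import genes had boundary peaks at 11 of 20. Nap1l4, for a chaperone of H2A and H2B, had 6.71 (5.19 to 8.54), Rbbp4 4.96, the acetyltransferase gene Hat1 4.44, the FACT subunit gene Ssrp1 4.28 and the H3-H4 chaperone gene Asf1a 4.27. Chaf1a and Chaf1b, for subunits of the replication-coupled assembly factor CAF-1, had no boundary peak. These lists are short, some of their peaks are shared with neighbours, and differences from the histone genes were not tested.

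**Figure D4:**
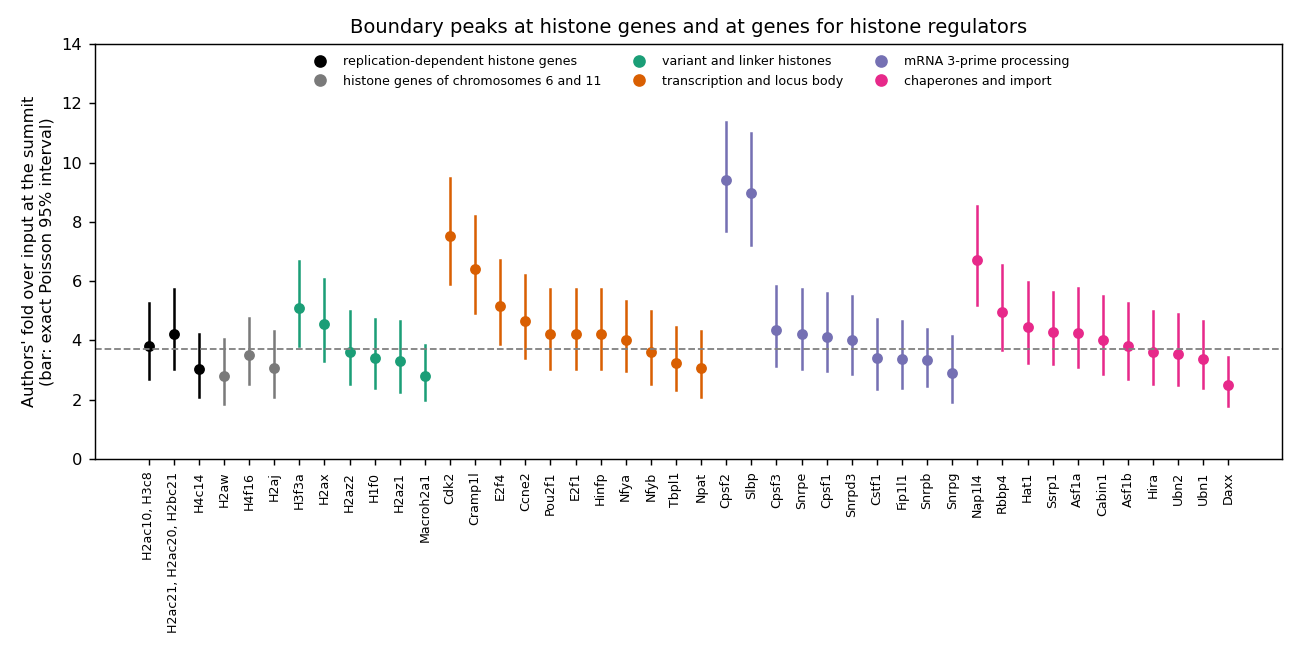
The authors' fold over input at the summit of the highest boundary peak of each gene (points) with its exact Poisson 95% interval (bars), by gene group, and the median of all peaks (dashed line, 3.72). The 3 peaks at replication-dependent histone genes lie between 3.03 and 4.23, whereas Slbp and Cpsf2 reach 8.97 and 9.40.

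The labelled cell type was compared with peaks at marker genes, which do not measure expression. A boundary peak was found at 10 of 12 dental mesenchyme markers (Lhx6 and Prrx1 had none), 0 of 5 of endothelium and 0 of 6 of blood and immune cells. The summit pileup over the list had a median of 38 fragments, and the interval of the fold included the list median for 85.5% of all peaks.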

How the data were processed

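Arid1b ChIP and input chromatin gave 1 library each. The submitters' processing notes name the build mm10 and the tools MACS2 2.1.1, Bowtie2 2.2.5, FastQC 0.11.8 and Picard. What each did, with which settings and on how many reads, is not given in the sources used here. No header stands in the deposited peak list. Its fold enrichment over input (a linear ratio), -log10 p-value, -log10 q-value and summit offset are the authors' own, and the deposited score was not used.

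Pileup and expected level at each summit were recovered from fold and p-value with MACS2's Poisson formula, solved within 0.001 in -log10 p for 100% of peaks. Fold intervals are exact Poisson 95% intervals. Genes came from a RefSeq table of GRCm38.p6, without the 126 of 21896 protein-coding genes not placed on an assembled chromosome. Coordinates are 1-based. Strand and promoters came from a RefSeq promoter table, with the first start listed per gene. Python 3.11.15, pandas 2.3.3, scipy 1.17.1 and Biopython 1.88 were used, and peak assignment and pileup recovery were tested on simulated data.

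Members and lists were chosen with earlier results of these data known. Named genes were all members with a peak within 10 kb, members just outside a window, ends of each run, variant histones with a boundary peak, and up to 5 others per related list, by fold. H2aw, H4f16, H4bc24, Npat, Casp8ap2, Lsm10, Lsm11, Zfp473, Chaf1a, Chaf1b, Cenpa, H3f3b, Cstf1, Fip1l1, Snrpb, Snrpd3, Snrpg, genes between or beside the runs, members without a peak, and ties at the fifth place were named after their values were seen. A planned comparison of histone proteins was not run.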

Additional observations from a re-analysis of the deposited data

How the results depend on the processing

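The counts of 6 and 11 histone genes rest on 3 peaks. None was lost with a -log10 q of at least 5. With a -log10 q of at least 10, or with a fold of at least 4, 3 genes and 1 peak were left in either window, the peak at H2ac21, while the shares of all protein-coding genes fell to 10.6% at a boundary and 16 or 16.1% within 10 kb. A window of 5 kb around the gene gave 7 genes in place of 11. Counting start sites only gave 3 of the 52 genes with a strand, against 23% of all genes with a promoter entry. H4c14, whose peak lay within 1 kb of both its ends, and H2bc21 were not among the 52. Adding the histone genes of chromosomes 6 and 11, an alternative chosen after seeing the data, raised the peaks from 3 to 6 in either window, with 9 and 16 of 62 genes. The other alternatives kept each count within 1.5 times and the median fold of 3.82 within its counting interval. Of these, summits in place of whole peaks gave 4 boundary genes, and peaks with input at the genome background gave 5. No paired analysis was possible because each group had 1 library.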
